A study of Mus musculus with 9 samples.

Results

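The 7 genes described here are the angiopoietin ligands Angpt1 and Angpt2, the receptors Tek and Tie1, the phosphatase Ptprb and the angiopoietin-like genes Angptl2 and Angptl4. They were chosen by symbol, and all 7 were found among the 25108 genes and gene models of the table, each on 1 row. The RNA libraries came from retinas collected on postnatal day 17 from C57BL/6 mice, 3 in each of 3 groups. OIR KO were IL-19 knockout mice with oxygen-induced retinopathy, OIR WT were wild-type mice with the same retinopathy, and RA WT were wild-type mice kept in room air. Oxygen-induced retinopathy is a model in which high oxygen prunes the growing vessels of newborn pups, and the return to room air leaves a hypoxic retina that forms new vessels. The labels give neither the nature of the IL-19 allele nor whether animals were pooled. The genotypes are compared in retinopathy alone, since knockout retinas of room air mice are not analysed here. The labels also do not tie each library to its own animal, and p-values therefore measure a spread between samples that may be technical.

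Angiopoietins are secreted ligands of Tie2, the receptor tyrosine kinase encoded by Tek on endothelial cells. Angiopoietin 1 activates Tie2 and keeps vessels quiet and tight, while angiopoietin 2, stored and released by activated endothelium, often opposes it and loosens vessels for sprouting or regression. Tie1 is a related receptor that binds no angiopoietin by itself and modulates Tie2, and Ptprb, also called VE-PTP, is an endothelial phosphatase that dephosphorylates Tie2 and acts at junctions of VE-cadherin. Angptl2 and Angptl4 share the fold of the family but not its receptor: Angptl2 is a secreted inflammatory and matrix factor, and Angptl4 inhibits lipoprotein lipase and is induced by hypoxia and fasting.

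The unit is FPKM, fragments scaled by gene length and by mapped fragments, which allows levels of different genes to be set side by side. Il19, the targeted gene, was listed at 0 in 8 libraries and at 0.0406 FPKM in RA WT 1, so its level did not check the genotype labels. Libraries of a group correlated across genes (genes are no independent replicates) with r of 0.974 to 0.985, and their depth is unknown. All 4 Y-linked genes examined (Ddx3y, Eif2s3y, Kdm5d, Uty) were at 0 in OIR KO 1 and RA WT 2, while their sum was 32.9 FPKM in RA WT 3 and lay between 48.1 and 64.4 FPKM elsewhere. Sex therefore differed between libraries within OIR KO and within RA WT, so neither group came from a single animal. Lens markers, 7 genes, summed to 18.3 FPKM in OIR KO 2 and 29.3 FPKM in RA WT 1, while no other library exceeded 4.66 FPKM. Vessel markers were present in every library: 10 endothelial markers summed to 108 to 154 FPKM in OIR KO, 85.5 to 119 FPKM in OIR WT and 54.8 to 80.9 FPKM in RA WT.

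The order of the 7 levels differed between retinopathy and room air. Angpt2 had the highest mean in both retinopathy groups. In OIR KO it was at 7.01 FPKM, followed by Tie1 at 6.59, Angptl2 at 4.15, Ptprb at 2.53, Angptl4 at 1.92 and Tek at 1.84 FPKM. In OIR WT it was at 10.4 FPKM, followed by Angptl2 at 5.97, Tie1 at 4.53, Angptl4 at 1.89, Ptprb at 1.32 and Tek at 0.918 FPKM. In RA WT the highest was Ptprb at 3.36 FPKM, followed by Tie1 at 2.49, Tek at 2.22, Angptl2 at 1.78, Angpt2 at 1.29 and Angptl4 at 0.938 FPKM. Angpt1 was last in all 3 groups. Neighbours in these orders mostly did not separate: the SD of Angpt2 in OIR KO was 4.96 FPKM, which spans Tie1 at 6.59 and Angptl2 at 4.15 FPKM, and in RA WT the ranges over libraries overlapped, at 2.59 to 4.04 FPKM for Ptprb, 1.57 to 2.98 for Tie1 and 1.90 to 2.73 for Tek. Below, a mean is given in FPKM ± SD (n = 3 in each group). A log2 change is a difference of log2(FPKM + 0.5) with its standard error (SE), from limma fitted to 15678 genes. A gene with a Benjamini-Hochberg adjusted p under 0.05 was called.

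**Figure D1:**
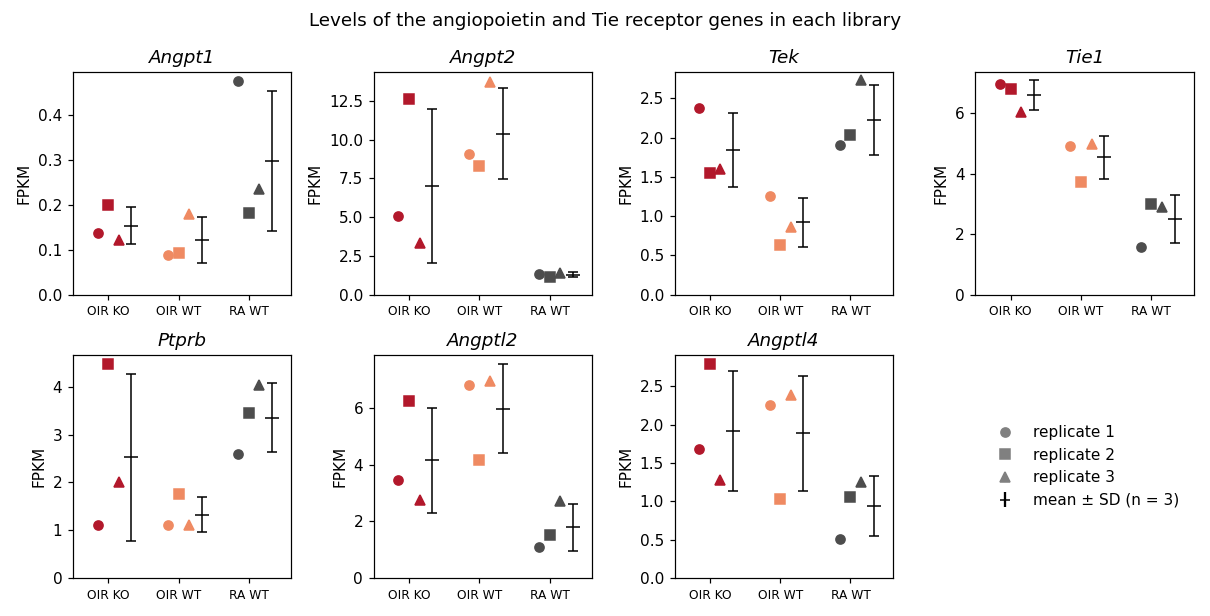
Level of each of the 7 genes in FPKM (vertical axes, each from 0) in the 3 libraries of OIR KO, OIR WT and RA WT; symbols are libraries and bars are mean ± SD. Angpt2 lies between 3.31 and 13.7 FPKM in the 6 retinopathy libraries, above all RA WT libraries, while Tek in OIR WT lies below all RA WT libraries.

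The limma test took in 6 of the 7 genes, those with at least 0.5 FPKM in at least 3 libraries, and left out Angpt1. Each of the 6 was above 0.5 FPKM in all 9 libraries. Against RA WT, 4 of the 6 were called in OIR WT: Angpt2, Angptl2 and Tie1 rose and Tek fell. The share called among all genes tested in that comparison was 16.0%, with 8.04% higher and 7.92% lower. In OIR KO against RA WT 2 of the 6 were called, Angpt2 and Tie1, both higher, against 10.4% of all genes, 4.75% higher and 5.69% lower. Ranges of OIR WT and RA WT were separate in 5 of the 6, and in 35.0% of all genes; they were separate in 4 of the 6 for OIR KO against RA WT, where the share was 32.7%. The median log2 change of the 6 genes was 0.75 for OIR WT and 0.88 for OIR KO against RA WT, beside medians over all genes of 0.01 and 0.02. Both comparisons share the RA WT libraries.

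Among the ligands, Angpt2 was at 5.08, 12.6 and 3.31 FPKM in OIR KO and at 9.08, 8.29 and 13.7 FPKM in OIR WT, against 1.35, 1.11 and 1.40 FPKM in RA WT. Every retinopathy library was above every room air library. The rise was 2.58 on the log2 scale for OIR WT against RA WT (SE 0.40, adjusted p = 0.0055) and 1.87 for OIR KO against RA WT (SE 0.40, adjusted p = 0.0227). The first call held without each library in turn. The second did not hold when any RA WT library was left out (adjusted p of 0.0572 without the first, 0.0643 without the second and 0.0697 without the third) or OIR KO 1 (0.0580), although the log2 change stayed between 1.37 and 2.26, nor with a replicate block (0.0556) or without both OIR KO 1 and RA WT 2 (0.115). The gene lies at GRCm38 chromosome 8, 18690263 to 18741562, minus strand, inside the gene Mcph1 on the plus strand. They share 0 exon bases, and Mcph1 was at 1.02 ± 0.0654 FPKM in OIR KO and 0.934 ± 0.123 in OIR WT, against 0.863 ± 0.302 in RA WT, and was not called (adjusted p = 0.762 for OIR WT against RA WT).

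Angpt2 differed within the OIR KO group, where OIR KO 2 was the highest library. The markers of red blood cells differed in the same way. The summed level of 5 erythrocyte markers was 112, 1070 and 113 FPKM in OIR KO and 1171, 512 and 1431 FPKM in OIR WT, against 94.8, 82.5 and 158 FPKM in RA WT. OIR KO 2 thus stood with the OIR WT libraries in both, and OIR KO 1 and 3 were within the RA WT range of erythrocyte markers while their Angpt2 was above it. Without OIR KO 2 the log2 change of Angpt2 in OIR KO against RA WT was 1.37 (adjusted p = 0.0170). Among the OIR KO libraries, OIR KO 2 was also highest in summed endothelial (154 FPKM), pericyte (111), microglia and macrophage (38.8) and lens markers (18.3). It was lowest in horizontal cell (113), Müller glia (1030) and pigment epithelium markers (62.1). The part of blood content or of other cell types in the Angpt2 levels was not tested.

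**Figure D2:**
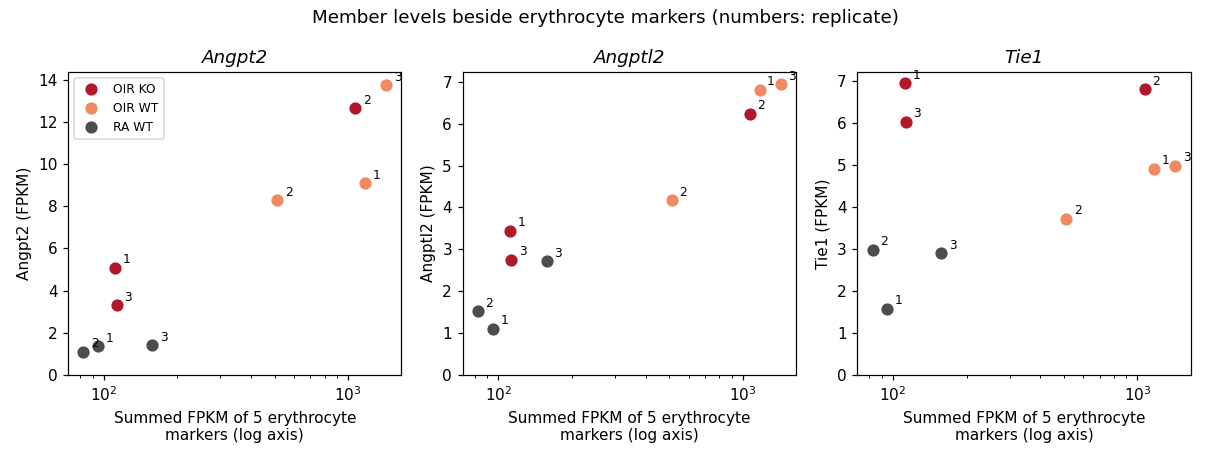
Levels of Angpt2, Angptl2 and Tie1 in FPKM (vertical axes) against the summed FPKM of 5 erythrocyte markers (horizontal log axis), 1 point per library, numbered by replicate. OIR KO 2, at a sum of 1070 FPKM, lies with the OIR WT libraries for Angpt2 and Angptl2, while the 3 OIR KO libraries lie together for Tie1.

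Angpt1, which encodes the activating ligand, was the least abundant of the 7 genes. It was at 0.137, 0.20 and 0.123 FPKM in OIR KO and at 0.0887, 0.0935 and 0.180 FPKM in OIR WT, against 0.475, 0.181 and 0.236 FPKM in RA WT. The highest OIR WT library lay just under the lowest RA WT library, and OIR KO overlapped with both. The difference on the log2 scale was -0.35 for OIR WT against RA WT (exact two-sided permutation p = 0.1, the smallest that 3 against 3 libraries can give) and -0.27 for OIR KO against RA WT (exact permutation p = 0.2). For the 6 retinopathy libraries of both genotypes against the 3 RA WT libraries it was -0.31, with overlap (exact permutation p = 0.0476, where 0.0238 is the smallest possible). These exact p-values are not adjusted for the number of members. When the filter was left out so that limma could test the gene, it was not called in OIR WT against RA WT (adjusted p = 0.151). At GRCm38 chromosome 15, 42424723 to 42676977, minus strand, 14.2% of its exon bases are shared with the antisense gene Gm17473, and no source used here gives the strand setting of the counting.

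The ratio of the ligands separated retinopathy from room air, as Angpt2 alone did. The log2 difference of Angpt2 over Angpt1 within a library was 3.13, 4.23 and 2.61 in OIR KO and 4.03, 3.89 and 4.39 in OIR WT, against 0.93, 1.24 and 1.37 in RA WT. All 6 retinopathy libraries were above all room air libraries. Their mean was 3.71 ± 0.69 (SD, n = 6) against 1.18 ± 0.23 (n = 3), a difference of 2.53 (exact two-sided permutation p = 0.0238, the smallest possible; 0.0357 after adjustment over the 6 ratios compared). OIR WT alone differed from RA WT by 2.92 and OIR KO alone by 2.15, each with an exact p of 0.1. Between the genotypes the ratio was 3.33 ± 0.83 in OIR KO and 4.10 ± 0.26 in OIR WT (difference -0.78, exact permutation p = 0.3, n = 3 each). The pseudocount enters this ratio strongly because Angpt1 is below 0.5 FPKM in every library. The 0.5 shrinks the change of Angpt1, whose plain means were 0.137 FPKM in retinopathy of both genotypes and 0.298 FPKM in RA WT. On the log2 scale used, Angpt1 differed by -0.31 between the 6 retinopathy and the 3 RA WT libraries. Most of the 2.53 on that scale thus came from Angpt2. The exact p of the ratio is therefore no separate evidence on the balance of the ligands.

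Tie1 and Tek moved in opposite directions in OIR WT against RA WT, while in OIR KO against RA WT only Tie1 was called. Tek, the angiopoietin receptor (GRCm38 chromosome 4, 94739289 to 94874976, plus strand), was at 2.38, 1.54 and 1.60 FPKM in OIR KO and at 1.26, 0.634 and 0.859 FPKM in OIR WT, against 1.90, 2.04 and 2.73 FPKM in RA WT. OIR WT lay below both other groups with no overlap, and OIR KO overlapped with RA WT. Tek fell by 0.95 on the log2 scale in OIR WT against RA WT (SE 0.21, adjusted p = 0.0154), which no longer passed without OIR WT 3 (adjusted p = 0.051) or without RA WT 3 (0.0583). In OIR KO against RA WT the log2 difference was -0.23 (SE 0.21, adjusted p = 0.530).

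Tie1, the partner receptor (chromosome 4, 118471191 to 118490061, minus strand), was at 6.94, 6.80 and 6.02 FPKM in OIR KO and at 4.90, 3.72 and 4.97 FPKM in OIR WT, against 1.57, 2.98 and 2.90 FPKM in RA WT. The 3 groups did not overlap. Tie1 rose by 1.28 on the log2 scale in OIR KO against RA WT (SE 0.20, adjusted p = 0.00618) and by 0.78 in OIR WT against RA WT (SE 0.20, adjusted p = 0.0285). The OIR KO call held without each library in turn. In OIR WT it no longer passed when OIR WT 1 (adjusted p = 0.0999) or OIR WT 3 (0.0927) was left out, or with a replicate block (0.0603). Without both libraries whose Y-linked genes were listed at 0, the adjusted p was 0.0562 in OIR KO and 0.0586 in OIR WT, and without the 2 libraries highest in lens markers it was 0.0512 in OIR WT.

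The promoters of both receptor genes are shown as a description. Any link between their sequence and the levels was not tested. Both promoters are from the RefSeq table of GRCm38.p6, 250 bases before to 50 after the start. They are written 5′ to 3′ on the strand of the gene. Capitals mark AGGAAG or its reverse complement CTTCCT, 1 form of the site bound by ETS factors. Other forms of that site, such as CGGAAG, were not searched and are not marked. Tie1 is at chr4:118489800-118490099 on the minus strand and Tek at chr4:94739039-94739338 on the plus strand. In GENCODE the Tie1 gene begins at 118490061 on the minus strand, so most of the Tie1 window lies inside that gene. The positions given below count from the RefSeq start, which differs for Tie1.
Tie1: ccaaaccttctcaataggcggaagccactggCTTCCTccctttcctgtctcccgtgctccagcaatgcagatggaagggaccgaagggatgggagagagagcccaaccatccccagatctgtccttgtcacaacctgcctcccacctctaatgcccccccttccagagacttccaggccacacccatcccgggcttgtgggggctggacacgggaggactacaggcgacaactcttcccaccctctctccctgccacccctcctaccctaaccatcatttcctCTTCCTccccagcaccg
Tek: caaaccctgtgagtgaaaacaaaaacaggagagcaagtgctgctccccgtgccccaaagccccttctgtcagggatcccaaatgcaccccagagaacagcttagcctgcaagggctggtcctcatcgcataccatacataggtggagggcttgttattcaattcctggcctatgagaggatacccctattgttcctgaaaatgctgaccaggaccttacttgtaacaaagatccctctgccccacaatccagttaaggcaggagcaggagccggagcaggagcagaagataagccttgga
The Tie1 window held 2 matches, starting at positions -219 and 34 from the start, and the Tek window held 0, where 35.4% of 32851 promoters of this length held at least 1. The GC content was 60.3% in Tie1 and 52.0% in Tek. The table also held Angptl2, with 1 match, and not Angpt1, Angpt2, Angptl4 or Ptprb. The hypoxia response cores ACGTG and GCGTG and the forkhead core TGTTTAC, searched on both strands, were in none of the 3 windows, against 19.6%, 32.4% and 3.65% of all promoters. ACGTG also matches part of the E-box CACGTG.

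Set against each other within a library as log2(FPKM + 0.5), Tie1 exceeded Tek by 1.37, 1.84 and 1.64 in OIR KO and 1.62, 1.89 and 2.01 in OIR WT, against -0.22, 0.46 and 0.07 in RA WT. On the plain FPKM scale, without the 0.5 that shrinks these differences, Tek made up 25.5, 18.5 and 21% of the summed FPKM of both receptors in OIR KO and 20.5, 14.6 and 14.7% in OIR WT, against 54.8, 40.6 and 48.5% in RA WT. The receptors were at near equal levels in room air and unequal in all 6 retinopathy libraries. The mean log2 ratio was 1.73 ± 0.23 (n = 6) in retinopathy of both genotypes against 0.10 ± 0.34 (n = 3) in RA WT, a difference of 1.62 (exact permutation p = 0.0238, adjusted 0.0357). The difference was 1.90 when 0.1 was added in place of 0.5 and 1.39 when 1 was added. Within retinopathy the mean log2 ratio was 1.61 ± 0.23 in OIR KO and 1.84 ± 0.20 in OIR WT, with overlap (exact permutation p = 0.3, n = 3 each). In OIR KO against RA WT the ratio differed by 1.51, where Tie1 changed by 1.28 and Tek by -0.23. The exact p of 0.0238 comes from the same libraries as the tests of Tie1 and Tek and is no separate evidence.

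In bulk retina, fewer cells of a type and less RNA per cell cannot be told apart, so the receptors were also set against the mean log2 level of the 10 endothelial markers (Pecam1, Cdh5, Erg, Esam, Egfl7, Cldn5, Robo4, Eng, Icam2 and Emcn). That marker mean was between 2.97 and 3.58 in OIR KO and between 2.74 and 3.31 in OIR WT, against 2.13 to 2.52 in RA WT, higher in every retinopathy library. Of the 10 markers 7 rose and 0 fell in OIR KO against RA WT, and 4 rose and 0 fell in OIR WT. Over all genes 4.75% were called higher and 5.69% lower in OIR KO, and 8.04% and 7.92% in OIR WT. Relative to the markers, Tie1 stood at -0.46 ± 0.23 in OIR KO and -0.72 ± 0.12 in OIR WT, against -0.84 ± 0.20 in RA WT, and the 6 retinopathy libraries differed from RA WT by 0.25 with overlap (exact permutation p = 0.143, adjusted 0.171). OIR KO alone lay above RA WT without overlap, by 0.39 (exact permutation p = 0.1, n = 3 each). Tek stood at -2.07 ± 0.42 in OIR KO and -2.56 ± 0.30 in OIR WT, against -0.95 ± 0.20 in RA WT. All 6 retinopathy libraries were below all RA WT libraries, by 1.37 on average (exact permutation p = 0.0238, adjusted 0.0357). Relative to these markers, Tek in OIR KO was below RA WT by 1.12, in 3 of 3 libraries (exact permutation p = 0.1, n = 3 each). As a level Tek did not pass the test there, with a log2 difference of -0.23. Most of the gap thus came from the higher marker mean. The markers changed unevenly in OIR KO against RA WT, with log2 changes from 0.17 for Esam to 1.36 for Emcn.

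Ptprb, the phosphatase (chromosome 10, 116275523 to 116389535, plus strand), was at 1.10, 4.48 and 2.0 FPKM in OIR KO and at 1.12, 1.75 and 1.11 FPKM in OIR WT, against 2.59, 3.45 and 4.04 FPKM in RA WT. OIR WT lay below RA WT without overlap, and the OIR KO libraries ran from the level of OIR WT to above the highest RA WT library. As a level it did not pass the test in OIR WT against RA WT (log2 -1.08, SE 0.36, adjusted p = 0.0740) or in OIR KO (log2 -0.49, adjusted p = 0.422). The OIR WT difference passed when only the libraries compared were fitted (adjusted p = 0.00983), with a replicate block (0.0439) and without OIR KO 2 and RA WT 1, which were highest in lens markers (0.0136). It did not pass when any single OIR WT or RA WT library was left out (adjusted p of 0.0835 to 0.203). Relative to the endothelial markers Ptprb stood at -2.61, -1.26 and -1.65 in OIR KO and -2.38, -1.57 and -2.62 in OIR WT, against -0.50, -0.53 and -0.32 in RA WT. All 6 retinopathy libraries were below RA WT, by 1.56 on average (exact permutation p = 0.0238, adjusted 0.0357). Part of this gap came from the marker mean, which was higher in every retinopathy library. OIR KO 2 was below RA WT on this measure although its level, 4.48 FPKM, was above the highest RA WT library. Ptprb over Tek did not separate retinopathy from RA WT, at 0.30 ± 0.77 (n = 6) in retinopathy and 0.50 ± 0.14 (n = 3) in RA WT (exact permutation p = 0.714).

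**Figure D3:**
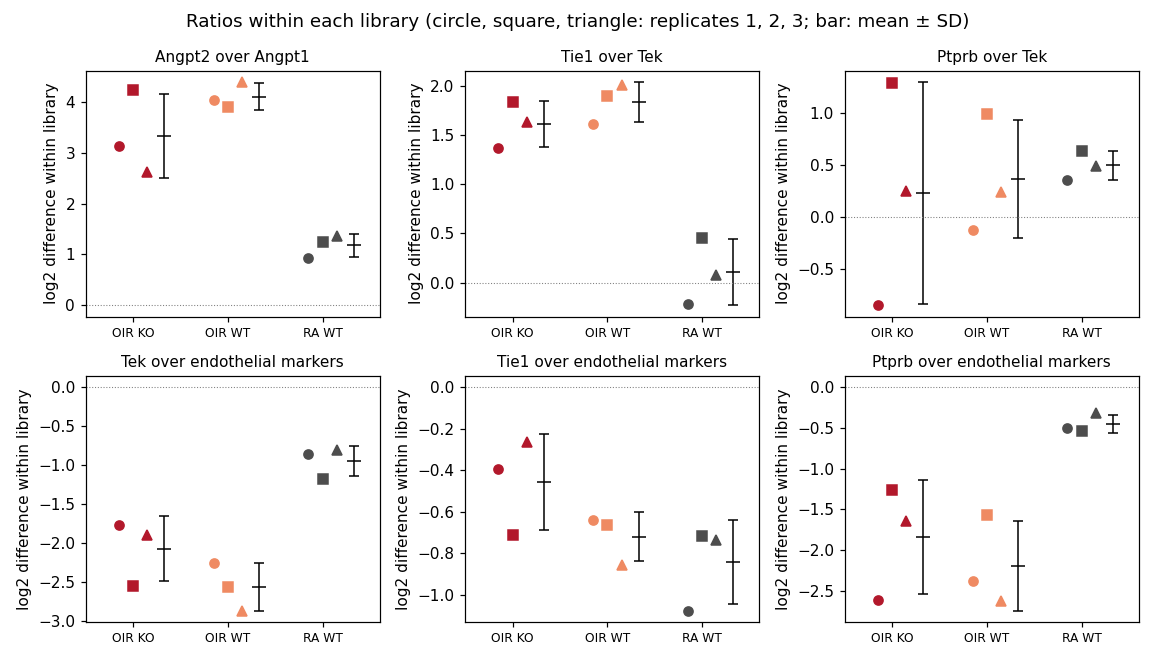
Log2 differences within each library (vertical axes) for the ligand ratio, for both receptor ratios and for Tek, Tie1 and Ptprb relative to the mean of 10 endothelial markers; symbols are libraries and bars are mean ± SD of the 3 libraries of a group. Angpt2 over Angpt1 and Tie1 over Tek are higher, and Tek and Ptprb relative to the markers lower, in all 6 retinopathy libraries than in the RA WT libraries.

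Of the angiopoietin-like genes, Angptl2 (chromosome 2, 33216069 to 33247717, plus strand, inside Ralgps1 on the other strand with 0 shared exon bases) was at 3.45, 6.24 and 2.75 FPKM in OIR KO and at 6.80, 4.17 and 6.94 FPKM in OIR WT, against 1.10, 1.52 and 2.71 FPKM in RA WT. Every retinopathy library was above every room air library, the lowest OIR KO library narrowly. It rose by 1.54 on the log2 scale in OIR WT against RA WT (SE 0.33, adjusted p = 0.0158), which no longer passed without OIR WT 1 (adjusted p = 0.0653), without OIR WT 3 (0.0582) or without RA WT 2 (0.057). In OIR KO against RA WT the log2 difference of 1.02 did not pass (SE 0.33, adjusted p = 0.0828). Its level was high in the same OIR KO library, OIR KO 2, as that of Angpt2 and of the erythrocyte markers. Relative to the endothelial markers, as a description, Angptl2 was at -1.13 ± 0.27 in OIR KO and -0.38 ± 0.16 in OIR WT, against -1.26 ± 0.38 in RA WT, and Angpt2 at -0.57 ± 0.62 in OIR KO and 0.37 ± 0.17 in OIR WT, against -1.55 ± 0.30 in RA WT.

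Angptl4 (chromosome 17, 33773750 to 33781830, minus strand) was at 1.68, 2.79 and 1.28 FPKM in OIR KO and at 2.25, 1.03 and 2.39 FPKM in OIR WT, against 0.503, 1.05 and 1.26 FPKM in RA WT. OIR KO lay above RA WT narrowly, and OIR WT 2 was inside the RA WT range. The log2 difference was 0.72 in OIR WT against RA WT (SE 0.32, adjusted p = 0.164) and 0.74 in OIR KO against RA WT (SE 0.32, adjusted p = 0.168), and neither passed the test. The 95% intervals were 0.0006 to 1.43 and 0.03 to 1.46.

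Between the genotypes within retinopathy, 0 of the 6 tested genes were called by limma, where 0.134% of all genes were, 0.0574% higher and 0.0765% lower. At an unadjusted p under 0.05, 2 of the 6 passed, Tek and Tie1, against 9.91% of all genes. These were also the 2 whose groups did not overlap, against 17.7% of all genes, and both were higher in OIR KO. Tek was at 1.84 ± 0.470 FPKM in OIR KO and 0.918 ± 0.318 FPKM in OIR WT (log2 0.73, SE 0.21, 95% interval 0.26 to 1.2, adjusted p = 0.305). Tie1 was at 6.59 ± 0.497 FPKM in OIR KO and 4.53 ± 0.704 FPKM in OIR WT (log2 0.50, SE 0.20, 95% interval 0.05 to 0.95, adjusted p = 0.456). Beside them, the summed endothelial markers were 135, 154 and 108 FPKM in OIR KO and 109, 85.5 and 119 FPKM in OIR WT, and Tek and Tie1 relative to those markers overlapped between the genotypes. The log2 difference of OIR KO against OIR WT was -0.70 for Angpt2 (95% interval -1.61 to 0.21), -0.52 for Angptl2 (-1.27 to 0.23), 0.59 for Ptprb (-0.22 to 1.41) and 0.03 for Angptl4 (-0.69 to 0.74). Each of these intervals spans 0 and reaches beyond 0.2 in both directions, so the data do not show equal levels.

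**Figure D4:**
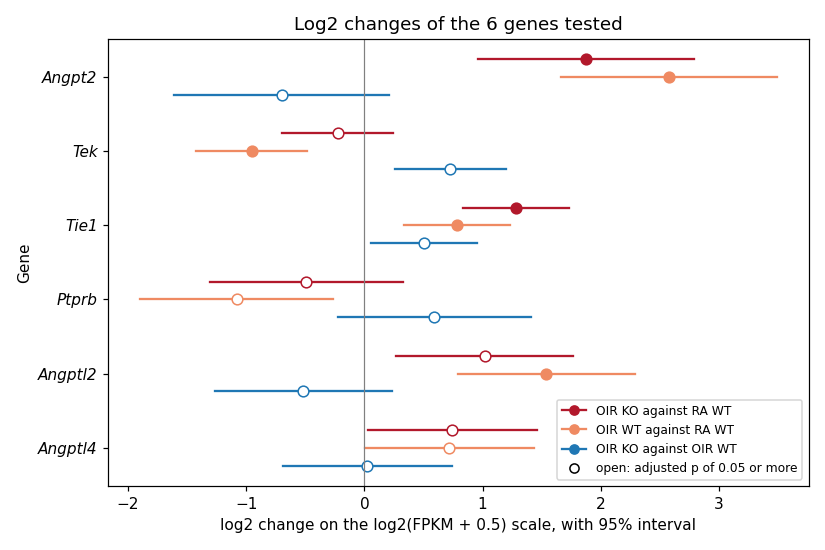
Log2 change (horizontal axis, log2(FPKM + 0.5) scale) with its 95% interval for the 6 genes tested, in OIR KO against RA WT, OIR WT against RA WT and OIR KO against OIR WT; filled points have an adjusted p under 0.05. Angpt2 and Tie1 are filled in both comparisons with RA WT, Tek and Angptl2 in OIR WT against RA WT but not in OIR KO against RA WT, and no point of OIR KO against OIR WT is filled.

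The other genes of the pathway were counted in lists by role. Beside these counts, 8.04% of all genes tested were called higher and 7.92% lower in OIR WT against RA WT. The shares were 4.75% and 5.69% in OIR KO against RA WT. Of 17 adaptors and effectors of Tie2, 16 were tested, 1 rose in OIR WT against RA WT and 0 fell. It was Tnip2, which encodes ABIN-2, a Tie2-binding inhibitor of NF-kappaB signalling, at 23.8 ± 9.85 FPKM in OIR KO and 29.5 ± 6.45 FPKM in OIR WT, against 11.9 ± 2.0 FPKM in RA WT (log2 1.26, SE 0.27, adjusted p = 0.0170 for OIR WT, which no longer passed, at 0.0541 to 0.0655, without OIR WT 1, without OIR WT 3, without RA WT 2 and without RA WT 3; log2 0.91, adjusted p = 0.0673 for OIR KO). None of the 16 was called in OIR KO against RA WT or against OIR WT. Foxo1, the transcription factor that Tie2 signalling keeps out of the nucleus, was at 4.03 ± 0.418 FPKM in OIR KO and 3.78 ± 0.217 FPKM in OIR WT, against 3.62 ± 0.267 FPKM in RA WT (adjusted p = 0.782 for OIR WT against RA WT). The median log2 change of the 16 was 0.05 in OIR WT and 0.15 in OIR KO against RA WT.

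Of 8 listed binding partners and substrates 6 were tested, and 4 were called higher and 0 lower in OIR WT against RA WT, 1 of which, Itgb3, met the filter only through retinopathy libraries. In OIR KO against RA WT 2 rose and 0 fell, and in OIR KO against OIR WT 0 were called. Cdh5 is also 1 of the 10 endothelial markers, so its rise is counted in both lists. Cdh5, VE-cadherin, whose junctions Ptprb acts on, was at 10.01 ± 2.2 FPKM in OIR KO and 7.23 ± 1.55 FPKM in OIR WT, against 3.74 ± 0.833 FPKM in RA WT, and rose in both (log2 1.31, adjusted p = 0.00618 in OIR KO; log2 0.87, adjusted p = 0.0205 in OIR WT). Itga5, the integrin subunit through which Angptl2 and angiopoietins can signal, was at 3.50 ± 1.08 FPKM in OIR KO and 4.0 ± 1.07 FPKM in OIR WT, against 1.10 ± 0.375 FPKM in RA WT, and rose in both (log2 1.32, adjusted p = 0.0119 in OIR KO; log2 1.5, adjusted p = 0.00537 in OIR WT). Its partner Itgb1 rose in OIR WT (log2 0.82, adjusted p = 0.0497) and did not pass in OIR KO (adjusted p = 0.0962), and its difference between OIR KO and OIR WT did not pass the test. Itgb3, another integrin subunit, was at 0.259, 0.821 and 0.226 FPKM in OIR KO and 0.819, 0.958 and 0.912 FPKM in OIR WT, against 0.0944, 0.123 and 0.204 FPKM in RA WT. The filter of 0.5 FPKM in 3 libraries thus admitted it for being high in retinopathy, and its call against RA WT is no support for a change. The Itgb1 call was lost without each library but OIR WT 2 (0.0824 to 0.143), and the OIR WT call of Cdh5 without OIR WT 1, without OIR WT 3, without RA WT 1 and without RA WT 2 (0.0563 to 0.0746). Svep1 and Pirb, a ligand of Tie1 and a receptor of Angptl2, did not exceed 0.130 FPKM in any library.

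Of 5 genes of the lipoprotein lipase system, on which Angptl4 acts, 4 were tested and 1 was called higher in both comparisons with RA WT. It was Gpihbp1, which carries lipoprotein lipase to the capillary lumen, at 1.08, 2.6 and 0.893 FPKM in OIR KO and 0.735, 1.36 and 1.33 FPKM in OIR WT, against a listing at 0, 0.0682 and 0.0264 FPKM in RA WT. It too met the filter only through retinopathy libraries, so these values are a description and its calls are no support for a change. Lpl itself was at 4.32 ± 0.235 FPKM in OIR KO and 5.15 ± 0.673 FPKM in OIR WT, against 5.58 ± 0.923 FPKM in RA WT (adjusted p = 0.170 in OIR KO and 0.672 in OIR WT). Among the other angiopoietin and angiopoietin-like genes listed, Angptl6 was tested, at 3.96 ± 0.224 FPKM in OIR KO and 4.58 ± 0.636 FPKM in OIR WT, against 4.33 ± 0.821 FPKM in RA WT, and it was not called. Angpt4, a ligand of Tie2 like the other angiopoietins, was at 0.416, 0.258 and 0.494 FPKM in OIR KO and 0.280, 0.428 and 0.210 FPKM in OIR WT, against 0.439, 0.929 and 0.749 FPKM in RA WT, higher than Angpt1 in each group mean. Angptl1, Angptl7 and Angptl8 did not exceed 0.398 FPKM. No listed pathway gene was at 0 in all libraries.

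**Figure D5:**
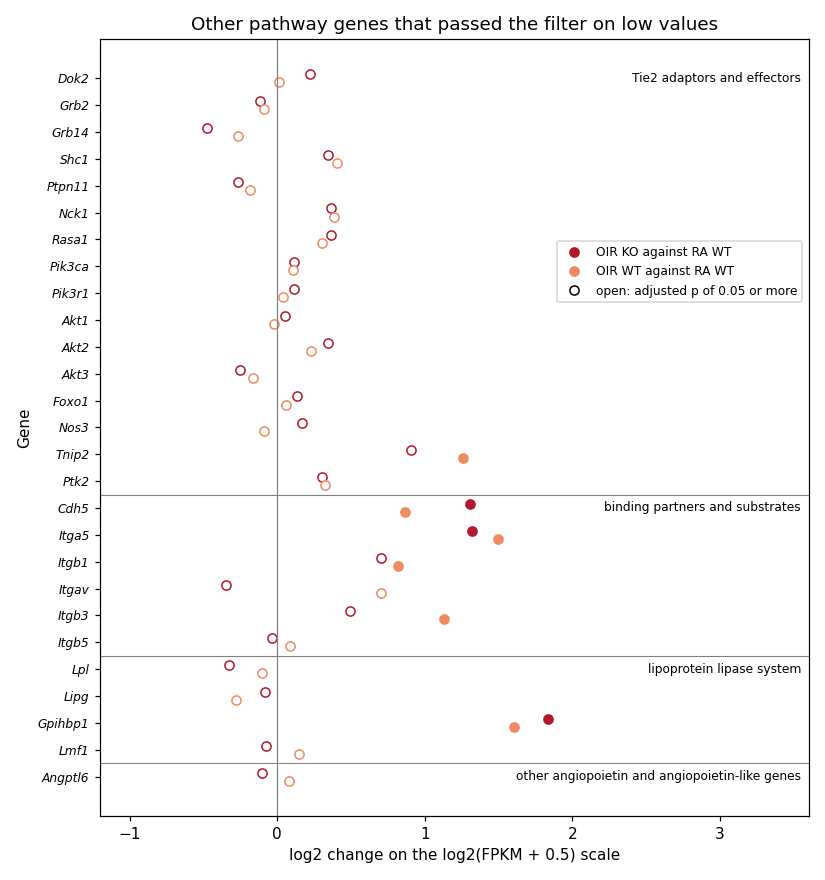
Log2 change on the log2(FPKM + 0.5) scale (horizontal axis) of the other pathway genes that were tested, in OIR KO and in OIR WT against RA WT, by list; filled points have an adjusted p under 0.05. In OIR WT against RA WT filled points are 1 of 16 Tie2 adaptors and effectors, 4 of 6 binding partners and substrates and 1 of 4 genes of the lipoprotein lipase system, among them Itgb3 and Gpihbp1, which met the filter only through retinopathy libraries. Over all genes 16.0% were called in that comparison.

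The genes whose pattern over the 9 libraries was most like that of each member were found among 12752 tested genes with a mean of at least 1 FPKM (12753 for Angpt1). Pearson r on the log2 scale is given as a description, since the libraries share 3 groups, and the r of deviations from the group means stands beside it. Both come from the same libraries, so the second does not check the first. Angpt2 was most like Hsd17b2, a steroid dehydrogenase (r 0.999, deviations 0.993), Cd248, endosialin of pericytes and stromal cells (0.993, 0.979), and Esm1, a product of endothelial tip cells (0.993, 0.969). Esm1 averaged 3.96 FPKM in OIR KO, 6.68 in OIR WT and 0.0399 in RA WT, so it met the filter only through retinopathy libraries. Hsd17b2 averaged 7.71 FPKM in OIR KO and 11.9 FPKM in OIR WT, against 0.832 FPKM in RA WT. Angptl2 was most like Plod1, a collagen lysyl hydroxylase (0.988, 0.981), Pgf, placental growth factor (0.981, 0.945), and the kinase gene Mapkapk2 (0.981, 0.967).

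Tie1 was most like Gja4, the connexin of arterial endothelium (0.980, 0.872), Lgals9, a galectin (0.980, 0.887), and Arhgef40 (0.978, 0.871). Gja4 averaged 4.89 FPKM in OIR KO and 3.32 FPKM in OIR WT, against 1.81 FPKM in RA WT, the same order of groups as Tie1. Tek was most like Aspscr1 (0.957, 0.858), Slc35d3 (0.940, 0.725) and Laptm4b (0.936, 0.695). Ptprb was most like Efemp1, a fibulin (0.943, 0.938), Chil1, a chitinase-like protein (0.922, 0.837), and B4galt6 (0.920, 0.887). Angptl4 was most like Leprot (0.987, 0.978), the ribosomal protein gene Rps2 (0.985, 0.978) and Tmem176b (0.981, 0.967). Angpt1, at levels under 0.5 FPKM, was most like Prr14l (0.934, 0.907), Extl1 (0.873, 0.761) and Gm20518 (0.872, 0.723).

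The erythrocyte markers rose in 5 of 5 in OIR WT against RA WT and in 0 in OIR KO against RA WT. Markers of other cell types moved with these groups, and their part in the members' levels was not tested. Against RA WT, 4.75% of all genes were called higher and 5.69% lower in OIR KO, and 8.04% and 7.92% in OIR WT. Pericyte markers, from a cell type that makes Angpt1 in other tissues, rose in 3 of 8 in OIR KO and 4 of 8 in OIR WT against RA WT, and summed to 70.4 to 111 FPKM in OIR KO and 74.0 to 97.3 FPKM in OIR WT, against 38.7 to 48.6 FPKM in RA WT. Horizontal cell markers, from neurons that express Angpt2, fell in 2 of 6 in each comparison and rose in 0. They summed to 113 to 161 FPKM in OIR KO and 119 to 138 FPKM in OIR WT, against 179 to 189 FPKM in RA WT, and Sept4 made up most of each group's sum. Onecut1 and Onecut2 were not called, at means of 0.610 and 0.419 FPKM in OIR KO and 1.33 and 0.693 FPKM in OIR WT, against 0.997 and 0.518 FPKM in RA WT. Müller glia markers fell in 1 and rose in 0 of 6 in OIR KO and fell in 4 and rose in 1 in OIR WT, with sums of 1030 to 1275 FPKM in OIR KO and 800 to 1022 FPKM in OIR WT, against 1387 to 1790 FPKM in RA WT. Microglia and macrophage markers rose in 4 of 7 in each, with sums of 25.7 to 38.8 FPKM in OIR KO and 31.6 to 44.6 FPKM in OIR WT, against 11.1 to 13.8 FPKM in RA WT. Pigment epithelium markers fell in 1 of 5 tested in OIR WT and in 0 in OIR KO, and summed to 62.1 to 116 FPKM in OIR KO and 38.2 to 81.8 FPKM in OIR WT, against 64.9 to 102 FPKM in RA WT. In OIR WT the lens markers Crybb2 and Lim2 were listed at 0 in every library.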

How the data were processed

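RNA was sequenced from 9 retinal samples. Per the labels' protocols, Trizol was used for extraction and an NEBNext Ultra kit for the libraries. The submitters' processing notes name HISAT2 and GRCm38. No source used here gives the program that computed expression, its strand setting or its annotation. The 1 table that the authors deposited holds FPKM values, fragments scaled by length and by mapped fragments. Absolute depth is unknown: the values of 4521 genes with 1 transcript, times transcript length, gave a smallest step per library, but at most 47.2% of low values lay within 0.05 of a whole step, where an even spread gives 10%. Reads were therefore not recovered and counting intervals were left out.

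The scale was log2(FPKM + 0.5), which understates the change of low genes. Genes with at least 0.5 FPKM in at least 3 libraries were tested with limma 3.58.1 in R 4.3.3, using all 9 libraries, a mean for each group and empirical Bayes moderation with the trend and robust options, two-sided, with Benjamini-Hochberg adjustment over 15678 genes. The fit was tested on simulated data. Within-library ratios were compared with exact two-sided permutation tests, adjusted over 6 ratios within a comparison. Leaving out a library kept the gene filter of all 9. Coordinates came from GENCODE M21 on GRCm38, where 22022 of 22036 Ensembl IDs matched, and promoters from RefSeq on GRCm38.p6.

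The members and lists were chosen with earlier results of these data known. The genes named are the members, each called gene of the pathway lists, listed genes that bear on a member's role (Foxo1, Lpl, Angptl6, Angpt4, Svep1, Pirb, Angptl1, Angptl7 and Angptl8, named after their values were seen) and the 3 most alike genes per member by r. Libraries with the same replicate number deviated from their group means with r from -0.353 to 0.134, so the numbers do not pair them. The alternatives were another pseudocount, filter, scaling, moderation, fit, a replicate block, a covariate of Y-linked genes and leaving out libraries.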

Additional observations from a re-analysis of the deposited data

How the results depend on the processing

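OIR WT against RA WT gave 4 members called, and 1 to 4 members and 1031 to 2166 of all genes when each library was left out in turn. OIR KO against OIR WT gave 0 members, and 0 members and 11 to 42 genes. OIR KO against RA WT gave 2 members, and 1 to 2 members and 709 to 1791 genes. The replicate block, whose numbers do not pair these libraries, gave 8 genes for OIR KO against OIR WT, and 1081 genes and 1 member for OIR KO against RA WT. For OIR KO against OIR WT, 13 genes were called with a filter of 1 FPKM and 13 without the trend and robust options. The Y-linked covariate gave 1581 genes for OIR WT against RA WT. Both remaining alternatives were chosen after seeing the data. Without OIR KO 2 and RA WT 1, highest in lens markers, 521 genes were called for OIR KO against RA WT. Without OIR KO 1 and RA WT 2, whose Y-linked genes were at 0, OIR WT against RA WT gave 2 members and 984 genes, and OIR KO against RA WT 0 members and 104 genes. The cause of these shifts was not tested.

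For OIR KO against OIR WT, Angptl4 turned to -0.0052 with the Y-linked covariate, to -0.22 without the lens libraries, and ranged from -0.27 to 0.22 over single libraries left out; Gpihbp1 was -0.12 without the lens libraries and ranged from -0.12 to 0.46, and Itgb1 from -0.37 to 0.072. None of these was called. For retinopathy of both genotypes against RA WT, leaving out single libraries gave Angpt2 over Angpt1 2.40 to 2.75, Tie1 over Tek 1.46 to 1.80, and, relative to the endothelial markers, Tek -1.48 to -1.26, Ptprb -1.71 to -1.44 and Tie1 0.14 to 0.32. With 2 RA WT libraries no exact p can be below 0.0714. Ptprb over Tek changed sign, at -0.39 to 0.033 for both genotypes, -0.44 to 0.12 for OIR WT against RA WT, -0.79 to 0.27 for OIR KO against RA WT and -0.66 to 0.40 for OIR KO against OIR WT. Depth is unknown, so no counting error can be set beside low values such as those of Angpt1.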
